A study of Schizosaccharomyces pombe with 31 samples.

Results

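The genes of the Atg1 initiation complex were followed through 31 RNAseq libraries of fission yeast. The members were atg1+ (SPCC63.08c), atg13+ (SPAC4F10.07c), atg17+ (SPAC10F6.11c) and atg11+ (SPAC7D4.04). These 4 genes were taken by identifier from the 7001 genes of the deposited tables. Their levels are no part of that rule, but the complex was picked for description with earlier results of these data known. In the time course, 27 libraries came from wild type cells (h- 972), igo1∆ cells (h- igo1::kanMX6), named for a replaced Endosulfine gene, and ppk18∆ cek1∆ cells (h- ppk18::KanMX6 cek1::natMX6). The latter are named for the loss of a pair of Greatwall kinases and keep ppk31+, the gene for the third. Each strain was sampled during exponential growth in minimal medium (MM) and 1 h or 4 h after a shift to the same medium without nitrogen (MM-N), with 3 libraries for each strain and time. The other 4 libraries came from an overexpression experiment, with 2 of the wild type (h- 972) and 2 of a strain that expresses GFP-tagged ppk18+ from the thiamine-repressible nmt1+ promoter (h- P3-nmt1-GFP-ppk18). Both strains were grown for 20 h in MM without thiamine, although the time label of these libraries reads 0 h. Nitrogen was present in all 4 of them. The labels name the deletions knockdowns, while the strain names are those of gene replacements. Each genotype was represented by 1 strain, so a change that belongs to the strain and not to the deleted gene cannot be told apart.

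Atg1 is the protein kinase that starts the formation of autophagosomes, and Atg13 is the regulatory subunit that binds it and is a target of TORC1. Atg17 and Atg11 are scaffold proteins. In budding yeast Atg17 gathers the complex for bulk autophagy and Atg11 links it to selective cargo, while in fission yeast Atg11 is also needed to activate the Atg1 kinase during starvation. When nitrogen is removed TORC1 activity falls, and the Greatwall kinases phosphorylate Endosulfine, which then inhibits the phosphatase PP2A/B55. The comparisons ask whether the transcripts of the complex follow starvation, and whether they need the Greatwall–Endosulfine switch to do so.

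Between 14921656 and 22464897 reads per library were counted on genes in the time course and between 14612909 and 18846318 in the overexpression experiment. The members had from 669 to 7318 reads in a library, and all 4 passed the filter on low values (a mean normalized count of at least 10) in both experiments. In the labelled double mutant, ppk18+ was at 3.39% to 4.69% and cek1+ at 1.12% to 2.51% of the wild type. In the libraries labelled igo1∆, the igo1+ transcript was lower but not lost, at 56.4% to 74.0% of the wild type. The tables hold 1 count per gene, so where in igo1+ the remaining reads lie was not tested, and igo1∆ is used here as the labels' name for these libraries. The overexpression strain had 72.3 times the ppk18+ count of its control (359073 against 4968). All strains are labelled h-. In the time course the M cell genes had normalized counts of 9.24 to 10737 (mfm1+), 101 to 3684 (mfm2+), 5.94 to 1426 (mfm3+), 46.2 to 4863 (mam2+) and 239 to 1190 (sxa2+), and the P cell genes 18.5 to 112 (map2+) and 122 to 289 (map3+). All 5 M cell genes were called lower in both mutants than in the wild type at 4 h (median log2 differences of -6.03 and -5.92), and their part in the 4 h results was not tested. In the overexpression experiment the M cell genes lay between 34.2 and 1111 and the P cell genes between 28.0 and 205. Normalized counts are relative values over all cells of a library, so a lower level in each cell and fewer cells with the transcript cannot be told apart.

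All 4 genes lie on the minus strand in the RefSeq annotation of assembly ASM294v3. The gene atg1+ is on chromosome III (849833 to 852682, 2 exons, 830 codons). The others are on chromosome I, with atg13+ at 4840485 to 4843603 (3 exons, 758 codons), atg17+ at 1226090 to 1228821 (1 exon, 411 codons) and atg11+ at 2630448 to 2633551 (1 exon, 926 codons). The transcript of atg17+ is 54.8% untranslated, and 46.7% of its exon overlaps rio1+ (SPAC10F6.10, a protein kinase gene) on the opposite strand. The strand setting of the read counting is not given in the sources used here, so values of rio1+ are given beside those of atg17+. Other protein-coding overlaps are small, 54 bases of atg1+ with thg1+ and 30 bases of atg13+ with bud22+. A non-coding RNA that is not listed in the tables covers 787 bases of atg13+ (28.1% of its exons), and others cover 219 bases of atg1+ and 199 of atg11+. All of them lie on the opposite strand. They have no counts here, so their part in the counts of these members was not tested.

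The 190 bases before each annotated transcript start are shown because the members rose together in the wild type and parted in the mutants. Capitals mark the letters GATAA or their reverse complement, the core recognized by GATA factors such as Gaf1, a transcription factor downstream of TORC1.
atg1+ promoter, III:852683-852872, minus strand: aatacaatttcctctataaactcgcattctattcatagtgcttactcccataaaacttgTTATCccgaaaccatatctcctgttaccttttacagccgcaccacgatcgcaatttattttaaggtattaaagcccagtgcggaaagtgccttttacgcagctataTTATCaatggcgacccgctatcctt
atg13+ promoter, I:4843604-4843793, minus strand: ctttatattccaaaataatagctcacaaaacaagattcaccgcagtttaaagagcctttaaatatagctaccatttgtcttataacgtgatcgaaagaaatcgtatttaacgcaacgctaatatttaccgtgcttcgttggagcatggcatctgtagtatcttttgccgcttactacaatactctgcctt
atg17+ promoter, I:1228822-1229011, minus strand: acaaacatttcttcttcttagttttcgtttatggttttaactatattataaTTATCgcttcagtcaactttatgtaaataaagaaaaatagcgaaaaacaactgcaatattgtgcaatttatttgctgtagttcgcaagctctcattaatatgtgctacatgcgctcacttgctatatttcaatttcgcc
atg11+ promoter, I:2633552-2633741, minus strand: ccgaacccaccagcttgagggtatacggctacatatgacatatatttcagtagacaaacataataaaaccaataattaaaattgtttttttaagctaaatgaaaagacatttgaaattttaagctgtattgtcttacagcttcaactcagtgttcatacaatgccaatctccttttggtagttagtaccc
The GATAA letters occurred 2 times before atg1+, at 131 and 25 bases from the start, and 1 time before atg17+, at 139 bases, each time on the opposite strand. They were not in this window of atg13+ or atg11+. On either strand, 44.3% of 5112 protein-coding promoters of this length hold these letters. None of the 4 windows holds CTTTGTT (the core of Ste11 sites, in 6.59% of promoters), TGACGT (Atf1, 4.68%) or GTAAACA (forkhead factors, 12%). Non-coding RNAs overlap 122 bases of the atg1+ window, 73 of the atg17+ window and 78 of the atg11+ window. The sequences are RefSeq's ASM294v3, while the submitters' notes name ASM294v2. The tables give no coordinates, and none were carried from one build to the other.

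In growing wild type cells, atg11+ was the most abundant member per length, and the levels of atg1+, atg13+ and atg17+ did not differ beyond their spread. The normalized count per kb of exon was 817 ± 24.4 for atg11+, 378 ± 22.6 for atg1+, 373 ± 19.7 for atg17+ and 366 ± 12.0 for atg13+ (SD, n = 3 each). The ranges of the last 3 overlapped. After 1 h in MM-N, atg1+ led in every wild type library, at 1969 per kb against 1082 for atg11+, 1007 for atg13+ and 651 for atg17+. The ranges of atg11+ and atg13+ overlapped, as they did at 4 h (1243 and 1284 per kb), where atg17+ was still the lowest at 863. The level of atg17+ per kb is taken over its whole exon, 46.7% of which overlaps rio1+. How reads in that overlap were counted is not known, so the place of atg17+ per kb at each time depends on it.

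**Figure D1:**
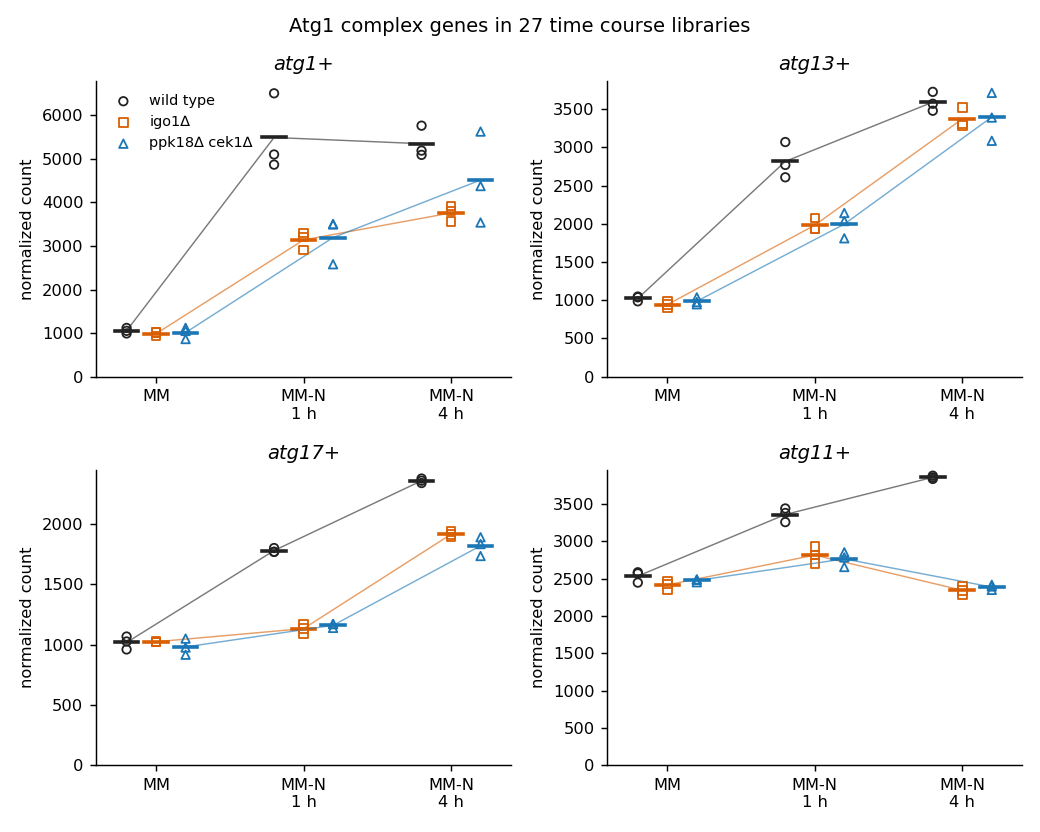
Normalized counts (vertical axis, linear from 0) of the 4 genes in the 27 time course libraries, by time in MM or MM-N. Each symbol is a library, bars are means of 3 and thin lines join the means of a strain. The wild type atg1+ counts overlap between 1 h and 4 h, and the atg11+ counts of both mutants at 4 h lay between 2288 and 2418, below all wild type libraries at that time.

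Starvation raised the whole complex in the wild type, in the order atg1+, atg13+, atg17+ and atg11+. The kinase gene atg1+ had normalized counts of 1052, 1119 and 993 in MM, 6502, 5099 and 4866 after 1 h in MM-N, and 5187, 5089 and 5760 after 4 h. The starved libraries did not overlap with those in MM, and the 2 starved times did. The mean rose 5.20-fold at 1 h, a log2 change of 2.37 (standard error 0.14, adjusted p = 1.26e-13), and was 5.07 times the MM level at 4 h. Between 1 h and 4 h the log2 difference was -0.03 (95% interval -0.31 to 0.25, adjusted p = 0.873). Changes and adjusted p-values are from limma on log2(normalized count + 1), with Benjamini-Hochberg adjustment over the 6036 genes tested and a threshold of 0.05. All 4 members were called higher at 1 h, against 40.3% of all genes tested, and at 4 h, against 39.9%. The log2 change of atg1+ at 1 h was above that of 97.5% of genes tested, and those of atg13+ and atg11+ were above 93.5% and 69.5%.

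For atg13+, the regulatory subunit, the wild type libraries held 1048, 1038 and 986 in MM, 3069, 2769 and 2608 at 1 h, and 3478, 3569 and 3725 at 4 h. The 3 times did not overlap, so the transcript was still rising after the first hour. The log2 changes were 1.46 (SE 0.068, adjusted p = 2.20e-15) at 1 h and 1.81 (adjusted p = 2.99e-17) at 4 h, and the difference between these times was 0.35 (adjusted p = 0.000115). The scaffold gene atg17+ had 960, 1067 and 1026 in MM, 1800, 1768 and 1769 at 1 h and 2358, 2375 and 2338 at 4 h, again without overlap. It changed by 0.81 (SE 0.044, adjusted p = 5.60e-14) at 1 h and 1.21 (adjusted p = 1.87e-17) at 4 h on the log2 scale. The overlapping rio1+ moved the other way, from 893 ± 35.4 to 221 ± 6.43 and 306 ± 15.3 (SD, n = 3 each).

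The other scaffold gene, atg11+, moved least, with 2447, 2586 and 2570 in MM, 3440, 3257 and 3379 at 1 h and 3856, 3835 and 3879 at 4 h. These values were close within each time and did not overlap between times. Its log2 change was 0.41 (SE 0.036, adjusted p = 3.67e-10) at 1 h and 0.61 (adjusted p = 2.01e-13) at 4 h. The sizes of these rises depend on the scaling. With every library brought to an equal total, the median of all genes rose by 0.47 at both times, and the change of atg11+ was 0.83 and 1.08, against 2.80 and 2.81 for atg1+. From 1 h to 4 h, 3 members were called higher in the wild type (27.1% of all genes), with log2 differences of 0.35 for atg13+, 0.41 for atg17+ and 0.20 for atg11+.

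Ratios between 2 members in the same library do not depend on how libraries are scaled, and they were used to ask whether the members responded unequally. All 6 pairs of members differed in their wild type response (6 starved against 3 MM libraries, exact two-sided permutation test, p = 0.0119 for each pair, 0.0119 after Benjamini-Hochberg adjustment over 6 pairs, the smallest p the design allows). On the log2 scale, atg1+ rose by 0.72 more than atg13+, 1.35 more than atg17+ and 1.85 more than atg11+. Likewise, atg13+ exceeded atg17+ by 0.62 and atg11+ by 1.13, and atg17+ exceeded atg11+ by 0.50. The starved and MM ranges of each ratio were separate. At 1 h or 4 h alone, 3 against 3 libraries cannot give an exact p below 0.1. The test over both times takes all libraries as independent, which successive samples of the same culture would not be.

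Before starvation, the mutants could not be separated from the wild type. In MM, 0 members were called in igo1∆ (2.15% of all genes were called in either direction) and 0 in ppk18∆ cek1∆ (1.67%). At an unadjusted p under 0.05, none was below it in limma in either mutant, and edgeR and DESeq2 also called 0. The log2 differences lay between -0.12 (atg13+) and 0.01 (atg17+) in igo1∆ and between -0.07 and -0.03 in ppk18∆ cek1∆.

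After 1 h in MM-N, all 4 members were lower in both mutants than in the wild type. In igo1∆ the 4 calls compare with 29.9% of all genes called lower, and in ppk18∆ cek1∆ with 28.7%. For atg1+, igo1∆ libraries had 3302, 2912 and 3200, ppk18∆ cek1∆ libraries had 3493, 2580 and 3504, and the lowest wild type library 4866. The mutants were at 57.2% and 58.2% of the wild type mean, log2 differences of -0.80 (SE 0.14, adjusted p = 2.33e-05) and -0.78 (adjusted p = 3.19e-05). For atg13+, the values were 2079, 1931 and 1935 in igo1∆ and 2141, 1810 and 2035 in ppk18∆ cek1∆, also below every wild type library. These were 70.4% and 70.9% of the wild type (log2 differences of -0.50 in each, adjusted p = 9.61e-07 and 1.34e-06).

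For the scaffold gene atg17+, the rise at 1 h was much smaller in the mutants than in the wild type. It stood at 1094, 1169 and 1135 in igo1∆ and 1139, 1172 and 1169 in ppk18∆ cek1∆, against 1021, 1023 and 1028 and 1050, 976 and 917 in MM. The log2 rise was 0.15 (adjusted p = 0.00515) and 0.24 (adjusted p = 3.16e-05), against 0.81 in the wild type. With total scaling these rises were 0.54 and 0.60 against 1.23, where the median of all genes rose by 0.42, 0.37 and 0.47. The deficit to the wild type was -0.65 (adjusted p = 1.75e-11) and -0.62 (adjusted p = 5.97e-11). At this time rio1+ was at 294 ± 31.5 and 261 ± 25.2 in the mutants and 221 ± 6.43 in the wild type (SD, n = 3 each). For atg11+ the deficit was the smallest of the 4, with 2700, 2817 and 2930 in igo1∆ and 2656, 2784 and 2854 in ppk18∆ cek1∆. These were 83.8% and 82.3% of the wild type (log2 differences of -0.25 and -0.28, adjusted p = 1.73e-06 and 4.92e-07).

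The difference in the rise itself was tested as an interaction, the log2 rise in the mutant minus that in the wild type. At 1 h the rise was smaller for all 4 members in igo1∆ (22.7% of all genes called lower) and in ppk18∆ cek1∆ (21.7%). The values for atg1+ were -0.70 and -0.72 (adjusted p = 0.00439 and 0.00406), and for atg17+ -0.66 and -0.56 (adjusted p = 1.47e-08 and 2.11e-07). All of the members still rose over MM in each mutant at 1 h (39.7% and 39.2% of all genes were called higher), atg1+ by 1.67 and 1.65 and atg13+ by 1.07 and 1.01 on the log2 scale.

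**Figure D2:**
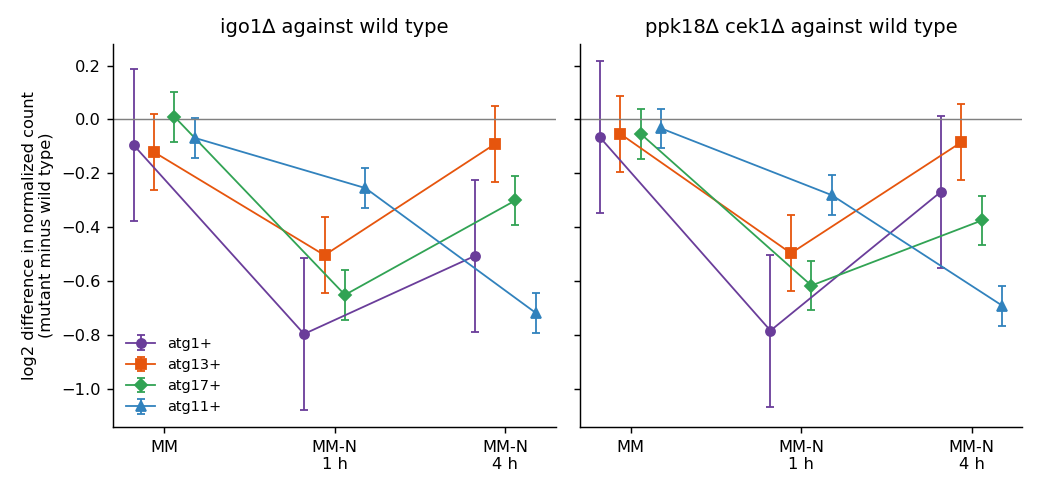
Log2 difference in normalized count between each mutant and the wild type (vertical axis) during growth and at both times of starvation, from limma, with 95% intervals (n = 3 libraries per group). The differences of atg13+ and atg17+ shrank between 1 h and 4 h, to -0.09 and -0.30 in igo1∆, while that of atg11+ widened from -0.25 to -0.72.

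By 4 h the members had separated. In igo1∆, 3 members were called lower than in the wild type (36.4% of all genes), and in ppk18∆ cek1∆ 2 were (34.8%). The gene atg13+ had caught up, with 3287, 3306 and 3520 in igo1∆ and 3389, 3085 and 3712 in ppk18∆ cek1∆, which overlap with the wild type range. It was at 93.9% and 94.6% of the wild type mean (log2 differences of -0.09, 95% interval -0.23 to 0.05, and -0.08, -0.23 to 0.06, adjusted p = 0.229 and 0.270). With libraries scaled to the same total, or quantile normalized, atg13+ was called lower in both mutants (log2 differences from -0.29 to -0.27). The median of all genes was then -0.15 in igo1∆ and -0.16 in ppk18∆ cek1∆ with total scaling, and -0.07 and -0.06 with quantile normalization.

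The kinase gene atg1+ stood between. Its igo1∆ libraries had 3801, 3558 and 3915, all below the lowest wild type value of 5089 (70.3% of the wild type mean, log2 difference of -0.51, adjusted p = 0.00192). The ppk18∆ cek1∆ libraries were spread, with 4374, 3538 and 5624, and the last lay within the wild type range. The log2 difference of -0.27 (95% interval -0.55 to 0.01) was not called (adjusted p = 0.0813). Single libraries moved it from -0.11 without replicate 2 (adjusted p = 0.490), the lowest of the 3, to -0.44 without replicate 3, the highest, where it was called (adjusted p = 0.00491). It was also called with edgeR (-0.30), total scaling (-0.46) and quantile normalization (-0.60). With the last 2, the median of all genes was -0.16 and -0.06.

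For atg17+ a smaller deficit than at 1 h remained at 4 h, with 1913, 1937 and 1891 in igo1∆ and 1890, 1833 and 1734 in ppk18∆ cek1∆. All 6 lay under the wild type libraries (log2 differences of -0.30 and -0.37, adjusted p = 2.13e-06 and 8.96e-08). The rise over MM was 0.90 and 0.89 on the log2 scale. Here rio1+ was at 196 (187 to 213) and 206 (196 to 223), below the 306 of the wild type, and between 1 h and 4 h it fell by 0.58 and 0.34 on the log2 scale in the mutants (adjusted p = 8.45e-07 and 0.000662), where atg17+ rose by 0.76 and 0.65. The part of rio1+ reads in the atg17+ counts was not tested.

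The gene atg11+ went the other way and was back at its MM level in both mutants at 4 h. Its counts were 2343, 2401 and 2288 in igo1∆, against 2426, 2471 and 2353 in MM, and 2350, 2418 and 2396 in ppk18∆ cek1∆, against 2452, 2484 and 2491. The wild type had 3835 to 3879 at this time, with no overlap. The mutants were at 60.8% and 61.9% of the wild type (log2 differences of -0.72 and -0.69, adjusted p = 1.82e-14 and 4.89e-14). From 1 h to 4 h atg11+ fell by 0.26 in igo1∆ and by 0.21 in ppk18∆ cek1∆ on the log2 scale (adjusted p = 7.72e-07 and 1.75e-05), where it rose in the wild type. Per kb, atg13+ exceeded atg11+ in igo1∆ (1205 against 755) and in ppk18∆ cek1∆ (1214 against 769) at 4 h, with no overlap of their ranges. Of the members, atg11+ was the only member called lower in that step in these fits (36.3% and 35.9% of all genes were). The other members called were higher in that step, atg13+ and atg17+ in igo1∆ (33.8% of all genes) and all 3 others in ppk18∆ cek1∆ (34.0%). In igo1∆ the atg1+ step of 0.26 was not called (adjusted p = 0.0925). In limma with only the groups compared it was called (adjusted p = 0.00302).

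Against MM, 3 members were called higher at 4 h in each mutant (42.1% and 41.9% of all genes), and atg11+ was not called, with log2 changes of -0.04 (95% interval -0.12 to 0.03) and -0.05 (-0.13 to 0.02). The sign depended on the processing. Total scaling gave a call in the higher direction for atg11+ (0.25 and 0.22), but the median of all genes was then 0.31 and 0.29, against 0.01 and 0.02 with the deposited scaling. Relative to that median atg11+ was at -0.06 and -0.07 under either scaling, and it was called lower with quantile normalization (-0.11 and -0.09) and edgeR (-0.08 and -0.09).

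Interactions at 4 h were called lower for atg17+ (-0.31 in igo1∆ and -0.32 in ppk18∆ cek1∆) and atg11+ (-0.65 and -0.66), which is 2 members in each mutant (30.1% and 28.1% of all genes). The atg1+ value in igo1∆, -0.41, was not called (adjusted p = 0.0655). It was called in limma with only the groups compared (-0.41, adjusted p = 0.000677) and with a replicate block (-0.41, adjusted p = 0.0450). Total scaling (-0.58), quantile normalization (-0.75) and edgeR (-0.47) also called it. For atg13+ the rise to 4 h was within 0.03 of the wild type in both mutants (adjusted p = 0.798 and 0.803, 95% intervals -0.17 to 0.23 and -0.23 to 0.17). With total scaling these values were -0.14 and -0.23 and with quantile normalization -0.17 and -0.23, and those of ppk18∆ cek1∆ were then called (adjusted p = 0.0407 and 0.0379). In these 4 h interactions the median of all genes was -0.14 in igo1∆ and -0.16 in ppk18∆ cek1∆ with total scaling. With quantile normalization it was -0.065 and -0.055. A further interaction, chosen after the data were seen, compared the step from 1 h to 4 h with that of the wild type. In igo1∆ it was called higher for atg13+ (0.41) and atg17+ (0.35) (29.4% of all genes) and lower for atg11+ (-0.46) (25.9% of all genes). In ppk18∆ cek1∆ it was called higher for atg13+ (0.41), atg17+ (0.24) and atg1+ (0.52, adjusted p = 0.0290) (27.3% of all genes), and lower for atg11+ (-0.41) (24.6%). The atg1+ call was lost when any of 5 single libraries was left out, and in limma with only the groups compared (adjusted p = 0.0890). In ppk18∆ cek1∆ the calls of atg1+ and atg17+ were lost with total scaling and with quantile normalization. The calls of atg13+ were lost with quantile normalization in both mutants (0.20 each).

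**Figure D3:**
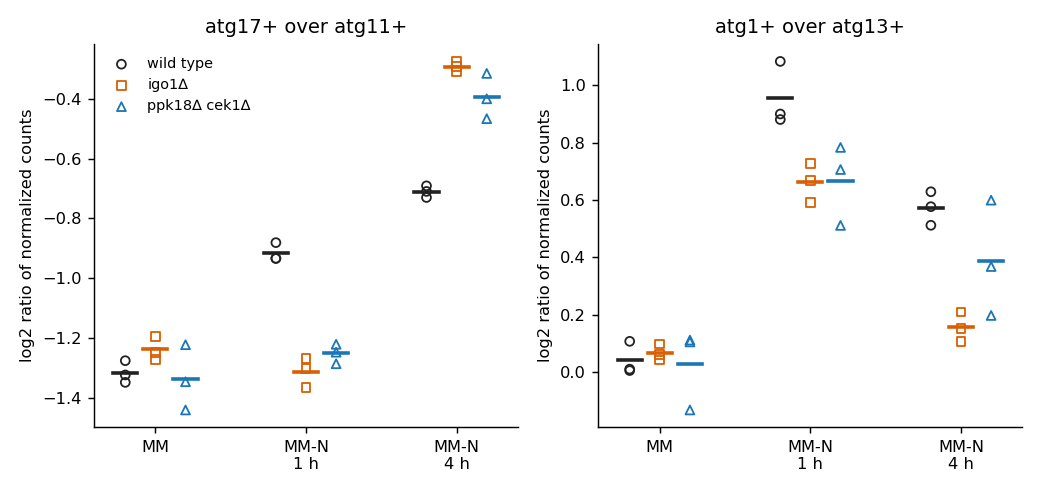
Log2 ratio of the normalized counts of 2 members in the same library (vertical axes, not starting at 0), for atg17+ over atg11+ and atg1+ over atg13+, by time. Each symbol is a library and bars are means of 3. The atg17+ over atg11+ ratio of all 6 mutant libraries lay below the wild type at 1 h and above it at 4 h.

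The unequal course of the 2 scaffold genes was seen within libraries, where scaling has no part. The log2 ratio of atg17+ to atg11+ in the wild type went from -1.32 ± 0.037 in MM to -0.92 ± 0.030 at 1 h and -0.71 ± 0.020 at 4 h (SD, n = 3 each). In igo1∆ it went from -1.24 ± 0.040 to -1.31 ± 0.050 and then to -0.29 ± 0.017, and in ppk18∆ cek1∆ from -1.34 ± 0.11 to -1.25 ± 0.033 and -0.39 ± 0.076. The mutants were thus 0.37 lower than the wild type at 1 h and 0.37 higher at 4 h (6 mutant against 3 wild type libraries at each time, exact permutation test, p = 0.0119 each, 0.0238 and 0.0357 adjusted over 6 pairs). When libraries were permuted only within their replicate number, a replicate block added after seeing the data, the exact p was 0.0370 at each time, the smallest of 27 arrangements, and 0.0556 and 0.0741 after adjustment, so neither call was kept. Averaged over both times the difference was 0.00068 (exact permutation test, p = 0.995), so that the times have to be read separately. At 4 h the ratio of atg13+ to atg11+ was also higher in the mutants, by 0.62 (adjusted p = 0.0357 in the same exact test), and at 1 h that of atg1+ to atg11+ was lower, by 0.52 (log2 ratio difference of -0.52, adjusted p = 0.0238). Within replicate numbers these calls were also lost (adjusted p = 0.0741 and 0.0556). With 27 arrangements, an adjusted p under 0.05 needs nearly all of the 6 pairs at the smallest p. The losses within replicate numbers therefore cannot decide whether pairing weakens these differences.

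The kinase gene and the regulatory subunit gene also parted. Over both times, the log2 ratio of atg1+ to atg13+ was lower in the mutants (-0.30, exact permutation test within times, adjusted p = 0.00255), and that of atg13+ to atg17+ was higher (0.19, adjusted p = 0.0115), and both calls held within replicate numbers (adjusted p = 0.00823 each). The other 4 pairs were not called over both times (adjusted p between 0.28 and 0.995). Taken alone, the atg1+ to atg13+ difference was not called at 4 h (adjusted p = 0.107). That of atg13+ to atg17+ was not called at 1 h (adjusted p = 0.157). These tests pooled the libraries of both mutants. At 4 h the log2 ratio of atg1+ to atg13+ averaged 0.57 (0.51 to 0.63) for wild type cells. For igo1∆ it was lower, at 0.16 (0.11 to 0.21). The ppk18∆ cek1∆ libraries averaged 0.39 (0.20 to 0.60), and their range overlapped that of wild type cells. At 1 h both mutants (0.59 to 0.73 and 0.51 to 0.78) lay below all wild type libraries (0.88 to 1.08).

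The 2 mutants could not be separated from each other for any member. In igo1∆ against ppk18∆ cek1∆, 0 members were called in MM, at 1 h and at 4 h (0.249%, 0.265% and 6.0% of all genes were called), in limma and also in edgeR and DESeq2, and 0 had an unadjusted limma p under 0.05. The largest difference was that of atg1+ at 4 h, -0.24 on the log2 scale (95% interval -0.52 to 0.04). The intervals for atg17+ and atg11+ were narrower, at most 0.17 from 0 at each of the 3 times.

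Strong expression of ppk18+ in nitrogen-rich medium raised atg1+, atg13+ and atg17+ by 0.89 to 1.20 on the log2 scale, and atg11+ by 0.19. The atg1+ count was 1202 and 1297 in the wild type and 3065 and 2687 in the overexpression strain, a 2.30-fold rise (log2 change of 1.20, SE 0.076, adjusted p = 1.46e-06). For atg13+ the values were 898 and 945 against 1953 and 2036, and for atg17+ 765 and 806 against 1383 and 1532. Neither gene's groups overlapped, with log2 changes of 1.11 (adjusted p = 8.32e-07) and 0.89 (adjusted p = 8.38e-06). The overlapping rio1+ was at 318 ± 9.96 against 442 ± 1.08 in the wild type (SD, n = 2 each). For atg11+, 1807 and 1870 compare with 2005 and 2181, a log2 change of 0.19 (SE 0.064, adjusted p = 0.0305). All 4 members were called higher, against 29.6% of the 5863 genes tested.

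**Figure D4:**
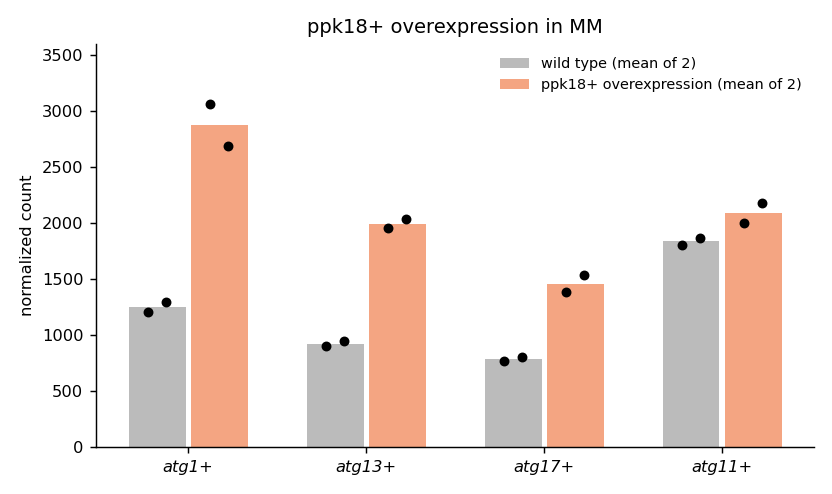
Normalized counts (vertical axis, linear from 0) of the 4 genes in the overexpression experiment. Bars are means of 2 libraries and dots are the libraries, which do not overlap between strains for any gene; atg11+ rose the least, 1.14-fold.

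The atg11+ call rested on small margins. It was lost without either wild type library (adjusted p = 0.146 and 0.0520) or overexpression replicate 2 (0.151), without the filter on low counts (0.102), with total scaling (0.0587) or quantile normalization (0.261), and with DESeq2 (0.0815). With 2 libraries per strain, the standard errors borrow from the spread of the other genes. The order of the members per kb changed with the kinase, from atg11+ first in both control libraries (592 per kb, then 448 for atg1+) to atg1+ first in both overexpression libraries (1032 per kb, then 713 for atg13+ and 674 for atg11+, whose ranges overlapped). The levels of the 2 experiments were scaled separately and are not compared.

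Of the remaining subunit, atg101+ (SPAC25H1.03), whose product stabilizes Atg13 in fission yeast and mammals and is missing from budding yeast, the normalized count in the wild type was 154 ± 22.9 before starvation, 433 ± 33.0 after 1 h and 524 ± 18.2 after 4 h (SD, n = 3 each). At 1 h the mutants were at 262 ± 20.3 and 257 ± 13.4, below the wild type like the 4 members (log2 differences of -0.72 and -0.75, adjusted p = 4.35e-07 and 2.86e-07). At 4 h they were above it, at 763 ± 62.8 and 711 ± 40.4 (0.54 and 0.44, adjusted p = 1.51e-05 and 0.000192). Under overexpression it was at 157 ± 18.3 against 110 ± 22.8 (SD, n = 2 each; log2 change of 0.52, adjusted p = 0.0319).

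Among 25 other autophagy genes, atg101+ included, 24 were called higher in the wild type at 1 h (40.3% of all genes were). The median log2 change of the 25 was 1.06, against 1.13 for the 4 members and 0.04 for all genes tested. In the mutants at 1 h, 21 and 20 of these genes were called lower than in the wild type (29.9% and 28.7% of all genes were). The medians were -0.50 each, close to the -0.58 and -0.56 of the members. At 4 h, 17 and 14 were called lower (36.4% and 34.8% of all genes were). In each mutant 4 were called higher, where 2341 and 2271 of all 6036 genes were. Under overexpression 18 of the 25 were called higher and 0 lower, with a median of 0.66 against 1.00 for the members. Of all 5863 genes, 29.6% were called higher and 1632 lower. A list of 22 genes covered TORC1, its regulators and targets and the Greatwall pathway, the deleted genes included. In the wild type at 1 h, 15 were called higher (40.3% of all genes) and 1 lower (2264 of 6036), with a median of 0.27. In each mutant at that time, 16 were called lower than in the wild type (29.9% and 28.7% of all genes). Another 3 were called higher, where 1969 and 1839 of all 6036 genes were (medians of -0.17 and -0.18).

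The genes whose 9 group means followed each member most closely were sought among 4867 other protein-coding genes with a mean count of at least 50, by Pearson's r on the log2 scale. For atg1+ they were gto2+, nbr1+ and pcd1+ (r of 0.996, 0.995 and 0.994), where nbr1+ encodes a receptor of selective autophagy. For atg13+ they were ctl1+, which encodes an autophagy factor that binds Atg9, dbl6+ and SPAC5D6.04 (r of 0.999, 0.997 and 0.997). For atg17+ they were dal2+, SPCC24B10.02c and SPCC338.18 (r of 0.997, 0.996 and 0.993), and for atg11+ atp17+, tlg2+ and rum1+ (r of 0.989, 0.986 and 0.986), of which rum1+ encodes an inhibitor of the cyclin-dependent kinase. None of these were members. Between members, r was 0.966 for atg1+ and atg13+, 0.922 for atg13+ and atg17+ and 0.852 for atg1+ and atg17+, but 0.564, 0.434 and 0.511 for atg11+ with atg1+, atg13+ and atg17+. The 9 means share their libraries and scaling, and these values are a description.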

How the data were processed

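RNA was measured in 31 libraries, whose groups were taken from their labels. Per the labels and the paper's methods, the authors trimmed reads with Trimmomatic 0.38, aligned them with HISAT2 2.1.0, counted them per gene with featureCounts (Subread 1.6.3) and divided the counts by a DESeq2 size factor per library. The deposited signal values are these normalized counts, in a separate table for each experiment. All values (100%) were whole multiples of a step per library within 1e-06, which gave back the reads. No column was left out, and 6852 of 7001 identifiers matched RefSeq (ASM294v3). The submitters' notes name ASM294v2.

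The limma package (3.58.1, R 4.3.3) was run on log2(normalized count + 1) (mean-variance trend, genes with a mean of at least 10), with the 27 time course libraries together (9 group means) and the 4 overexpression libraries on their own. The pseudocount understates changes of low genes. Adjusted p-values are Benjamini-Hochberg over all genes tested, with a threshold of 0.05, and intervals are 95%. Ratios between members were tested by exact two-sided permutation over libraries. The scripts were tested on simulated data. Figures used matplotlib 3.10.9.

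Members, lists and tests were chosen with earlier results of these data known. Named genes were the 4 members, atg101+ by its values, and the 3 genes most like each member; lists were given by counts and medians. Replicates are those that the labels call biological, and the paper calls them independent experiments. Its methods describe cells harvested at successive times after the shift, and do not tie replicate numbers across strains. Whether equal numbers pair libraries was checked from how far their deviations from the group means correlate, over genes with a mean of at least 50. Every pair had a correlation over 0.1 between each mutant and the wild type at 1 h (0.32 to 0.37 for igo1∆ and 0.11 to 0.46 for ppk18∆ cek1∆), between igo1∆ in MM and at 4 h, and between the mutants in MM and at 1 h. Between 1 h and 4 h of a strain the correlations were mixed. They were 0.35, 0.05 and -0.16 in the wild type, 0.06, 0.21 and 0.16 in igo1∆, and 0.08, 0.66 and 0.34 in ppk18∆ cek1∆. The ratio tests over both times, of the wild type and of the mutants, permute these libraries as independent. Alternatives were a pseudocount of 10, no filter, a minimum mean of 50, total scaling, quantile normalization, edgeR 4.0.16 (TMM), DESeq2 1.42.0, a replicate block, only the groups compared, and leaving out each library.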

Additional observations from a re-analysis of the deposited data

Results flagged for a closer look

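Each result here is a difference between the starvation response of a mutant and that of the wild type that passed the test of the difference itself (limma interaction term, adjusted p below 0.05, 3 libraries per group). For the response to 1 h in MM-N it was called for all 4 members in igo1∆ (log2 differences of -0.70 for atg1+, -0.38 for atg13+, -0.66 for atg17+ and -0.19 for atg11+) and in ppk18∆ cek1∆ (-0.72, -0.44, -0.56 and -0.25 in the same order). Of all genes, 22.7% and 21.7% were called lower in these interactions. For the response to 4 h it was called for atg17+ (-0.31 in igo1∆ and -0.32 in ppk18∆ cek1∆) and atg11+ (-0.65 and -0.66), where 30.1% and 28.1% of all genes were called lower. For the step from 1 h to 4 h, an interaction added after the data were seen, it was called for atg13+ (0.41 in igo1∆ and 0.41 in ppk18∆ cek1∆), atg17+ (0.35 and 0.24), atg11+ (-0.46 and -0.41), and in ppk18∆ cek1∆ also for atg1+ (0.52). In that step 29.4% and 27.3% of all genes were called higher, and 25.9% and 24.6% lower. The sign of atg11+ in that step was opposite to that of the other members called, in both mutants.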

How the results depend on the processing

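Counts of members called stayed within 1.5 times the reported count in 404 refits and moved further in 5, all in ppk18∆ cek1∆. Against the wild type at 4 h, 2 members became 4 with total scaling and with quantile normalization. Of all genes, 2103 of 6036 were called lower there, against 2849 of 6038 and 2449 of 6036 in these refits. In the interaction at 4 h, 2 became 4 with quantile normalization, where all genes called lower went from 1697 to 2060. In the added interaction of the step from 1 h to 4 h, 4 became 2 with total scaling and 1 with quantile normalization. There, all genes called higher went from 1650 to 1174 and 1348, and those called lower from 1482 to 1975 and 1945. Leaving out single libraries gave from 2 to 3 members in the first of these comparisons, from 3 to 4 in the last and from 3 to 4 in the overexpression experiment. Among the fitted changes that either fit called, those that turned in direction were atg11+ at 4 h against MM with total scaling (0.25 in igo1∆ and 0.22 in ppk18∆ cek1∆). In all, 50 of the refitted values and ratios changed sign, and apart from these and 1 ratio given below, none of them was called in either fit. Read at 1 time only, the 6 wild type ratio differences were not called, since 3 against 3 libraries cannot pass. Their values at 1 h and 4 h were 0.91 and 0.53 (atg1+ over atg13+), 1.56 and 1.13 (atg1+ over atg17+), 1.96 and 1.73 (atg1+ over atg11+), 0.65 and 0.60 (atg13+ over atg17+), 1.049 and 1.20 (atg13+ over atg11+), and 0.40 and 0.61 (atg17+ over atg11+). The mutant ratio differences pool both mutants. In them, calls were lost for atg1+ over atg13+ at 4 h (-0.30) and atg13+ over atg17+ at 1 h (0.13). Calls were gained for atg1+ over atg11+ at 1 h (-0.52), atg13+ over atg11+ at 4 h (0.62) and atg17+ over atg11+ at 4 h (0.37), and the last turned at 1 h (-0.37). The cause was not tested. With the replicate number as a block, the atg1+ interaction of igo1∆ at 4 h was called (-0.41, adjusted p = 0.0450), and no other limma call of a member changed. The exact permutation of ratios within replicate numbers kept the 6 wild type calls (p = 0.0370 each, the smallest possible). It also kept every call over both times, but with the 1 h and 4 h libraries permuted independently, which libraries of 1 culture would not allow. At 1 time no mutant ratio difference was called, where the smallest p passes adjustment only if nearly all of the 6 pairs reach it. Those of atg1+ over atg13+ were -0.29 and -0.30 at 1 h and 4 h, and those of atg13+ over atg17+ 0.13 and 0.25. The replicate numbers of the overexpression experiment did not deviate together (correlation of -0.22), and the crossed pairing, added after seeing the data, also called 4 members. The precision rests on 2 or 3 libraries a group, and the counting error of a member's reads (669 at the lowest) is part of their spread.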
